A study of Mus musculus with 8 samples.

Results

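Islets of 2 wild-type mice were compared with and without a 2 h exposure to 3 inflammatory cytokines, by RNA sequencing of 4 libraries out of the 8 in the series. The libraries were chosen by their labels: untreated and cytokine cultures of the wild-type mice, with 2 libraries per group. The strain is given as Agouti/C57BL6, and the protocol names C57BL/6 mice from Jackson Laboratories beside the transgenic NFATc2βKO mice. Tamoxifen had been given to the wild-type mice too, with no resulting knockout, and the sources used here do not say whether they carried a tamoxifen-activated construct. The other 4 libraries came from 2 adult knockout mice in which tamoxifen had removed NFATc2, a calcium-regulated transcription factor, from insulin-expressing cells. All islets were picked by hand and kept overnight in 5.5 mM glucose. Treated islets then received a mixture of IL1β (5 ng/mL), TNFα (10 ng/mL) and IFNγ (50 ng/mL) in 11 mM glucose, while controls stayed untreated for the same 2 h. The glucose level of the untreated culture in those 2 h is not stated, so effects of the cytokines and of the glucose cannot be told apart. Ages of the mice are not stated in the sources used.

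Pancreatic islets are clusters of endocrine cells in which insulin-producing beta cells prevail, with alpha, delta and PP cells, blood vessels, macrophages and some fibroblasts. IL1β and TNFα bind receptors that lead to the kinase IKK, which removes IκB proteins and frees NF-κB to enter the nucleus and switch on its own inhibitors, survival genes, adhesion molecules and chemokines. IFNγ binds a receptor coupled to JAK kinases, which drives a separate set of genes, among them Irf1, the guanylate-binding proteins and genes of antigen presentation. In islets these 3 cytokines are widely used together as a model of the inflammation around beta cells in type 1 diabetes.

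The deposited tables hold group means and the authors' own test results. Whole reads per library were recovered from those means for 16317 of 16333 genes (99.9%). The wild-type libraries held 14562368 and 17149736 recovered reads untreated and 17413282 and 23632125 with cytokines, and the whole series ranged from 14562368 to 26861854. Each wild-type group held 1 library with 7516 or more reads of 4 Y-linked genes and 1 with 3 or fewer, so the libraries are named here by the sex of the mouse. Which of the 2 label numbers belongs to which sex is not known. Untreated and treated libraries of 1 mouse were compared with each other.

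The tissue label was checked on the hormone genes. In the authors' deposited table, mean normalised counts of Ins2 were 1039157 untreated and 880435 with cytokines, and those of Ins1 were 621091 and 547303. Alpha-cell Gcg stood at 199822 and 216338 in the same table. Nfatc2, the gene removed in the knockout mice, was present in every wild-type library. It had 1557 normalised counts untreated and 1646 with cytokines in the female, and 1270 and 1144 in the male. Markers of other pancreatic cells were also present and moved between the cultures of a mouse. Summed over 30 acinar genes, their share of recovered normalised counts went from 0.481% to 0.23% in the female mouse and from 0.0703% to 0.051% in the male. The share of 24 stromal genes went from 0.0692% to 0.155% in the female mouse and from 0.0991% to 0.103% in the male.

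The starts of NF-κB target genes are shown first, because the list of this factor's targets held more calls than any of the other lists. Those lists were written with earlier results of these data known, which can shape such counts. Of 8 genes picked for the size of their evidence among NF-κB, chemokine and IFNγ target genes, 6 had a window in the RefSeq promoter table for GRCm38.p6, the other 2 being Relb and Gbp4. Each window holds 300 bases, 250 before the start site and 50 after it. Both strands were searched for the NF-κB consensus and for the AP-1 motif TGANTCA. Over the 32851 windows of the same length in that table, 8.46% held the NF-κB consensus and 7.81% the AP-1 motif. Capitals mark the NF-κB consensus in the sequences printed here, 5′ to 3′ on the strand of the gene, which are those of Cxcl10 (chr5:92348840-92349139, minus strand), Tnfaip3 (chr10:19015361-19015660, minus strand), Csf1 (chr3:107760420-107760719, minus strand) and Selp (chr1:164115014-164115313, plus strand).
Cxcl10: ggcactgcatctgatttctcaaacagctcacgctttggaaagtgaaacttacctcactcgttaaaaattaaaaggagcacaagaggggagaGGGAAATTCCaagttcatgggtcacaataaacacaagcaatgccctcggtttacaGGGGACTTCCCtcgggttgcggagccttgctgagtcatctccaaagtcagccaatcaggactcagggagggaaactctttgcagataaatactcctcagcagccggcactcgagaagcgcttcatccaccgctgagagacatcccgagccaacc
Tnfaip3: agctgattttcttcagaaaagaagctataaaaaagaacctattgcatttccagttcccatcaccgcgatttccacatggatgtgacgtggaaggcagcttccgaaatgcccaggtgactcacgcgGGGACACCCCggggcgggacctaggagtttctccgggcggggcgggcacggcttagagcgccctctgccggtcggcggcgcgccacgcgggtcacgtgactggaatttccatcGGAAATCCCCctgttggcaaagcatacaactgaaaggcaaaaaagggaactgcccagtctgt
Csf1: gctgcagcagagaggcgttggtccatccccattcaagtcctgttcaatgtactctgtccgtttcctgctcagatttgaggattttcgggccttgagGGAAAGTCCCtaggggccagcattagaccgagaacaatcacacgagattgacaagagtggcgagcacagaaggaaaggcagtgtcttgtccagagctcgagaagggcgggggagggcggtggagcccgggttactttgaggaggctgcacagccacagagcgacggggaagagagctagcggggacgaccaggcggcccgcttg
Selp: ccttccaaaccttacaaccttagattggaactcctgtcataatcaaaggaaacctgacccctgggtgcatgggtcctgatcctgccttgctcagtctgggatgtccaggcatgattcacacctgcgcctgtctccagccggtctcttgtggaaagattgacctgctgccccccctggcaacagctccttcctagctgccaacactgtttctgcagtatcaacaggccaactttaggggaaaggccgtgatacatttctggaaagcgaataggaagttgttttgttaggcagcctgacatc
Counted from the start site, Cxcl10 held matches beginning at -159, -104 and -103, the last of which overlap in 1 stretch of capitals. Tnfaip3 held matches at -125 and -12, and Csf1 held 1 match at -154. AP-1 matches, left in lower case, lay at -74 in Cxcl10, at -136 in Tnfaip3 and at -139 in Selp, whose window had no NF-κB match. Neither motif was found in the window of Birc3 or in a second window of Tnfaip3. Of the 2 windows of Tifa, an adaptor of NF-κB signalling and the sixth gene, 1 held an NF-κB match at 33 and the other held neither motif. A match describes the letters only.

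At 2 h few genes passed the test, among them Relb, Tnfaip3, Birc3, Csf1 and Selp of the NF-κB lists, both metallothioneins Mt1 and Mt2, and 3 histone genes. Comparing the cultures of each mouse, limma called 25 of 16317 genes (0.153%) at a Benjamini-Hochberg adjusted p below 0.05, of which 20 rose (0.123%) and 5 fell (0.0306%). Without adjustment 1971 genes (12.1%) had a p below 0.05, 1111 higher (6.81%) and 860 lower (5.27%). The authors' deposited table called 2 of 16333 genes (0.0122%) at an FDR below 0.05, with 150 (0.918%) at an unadjusted p below 0.05. When the mice were not paired, limma called 0 genes, with 337 at an unadjusted p below 0.05. The count was 313 without the wild-type female and 1230 without the wild-type male, where the spread comes from the 2 knockout mice alone, and it was 29 without the knockout female and 29 without the knockout male.

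Many of the calls depended on the setting. With the mice paired, Selp, Mt1, Lox, H3f3b, Steap4, Relb, Gfpt2, Birc3 and Bhlha15 were called in every alternative that tested them, and the other 16 lost the call in at least 1. When the wild-type libraries were fitted alone, 31 genes were called, and 12 of the 25 missed the threshold: Csf1, Tnfaip3, Gbp4, Hist1h1c, Hist1h1e, Odc1, Itgb8, Slc16a6, Syvn1, Esr1, Zfp324 and Srm. The same 12 missed it without either knockout mouse, as did Xpo1, and Col5a3 missed it without the knockout female. Gem lost its call under total-read scaling, voom weights and the mean of at least 100, and Mt2 under the last of these.

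The 2 genes called by the authors were Ighv12-3 and Igkv4-91, variable segments of immunoglobulin heavy and kappa light chains. Ighv12-3 had 4 reads in the treated female library and 0 in the other 3 wild-type libraries, with an FDR of 0.00055 in the authors' deposited table. Igkv4-91 had 7 reads in the treated female library and 0 in the other 3, with an FDR of 0.00261 there. Both calls thus rested on 1 library, a count of 0 allows for up to 3 reads, and limma within mice gave adjusted p-values of 0.606 and 0.487. The wild-type means were 0 untreated and 2.172 treated for Ighv12-3, and 0 and 3.801 for Igkv4-91. The smallest mean of any gene over all libraries was 23.2, so both segments reached it only through the knockout libraries. How reads that fit several related segments were counted is not stated.

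Across all genes the changes in the female and the male mouse had a correlation of r = 0.19 (16317 genes, which share libraries and are not independent). The female's changes were wider, with an SD of 0.37 on the log2 scale against 0.26 in the male, and 404 genes moved by more than 1 in the female against 112 in the male. The median change was close to 0 in both, at -0.01 and 0.01. As the background for the lists that follow, 4385 genes (26.9%) were higher and 4219 (25.9%) lower in both mice.

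**Figure D1:**
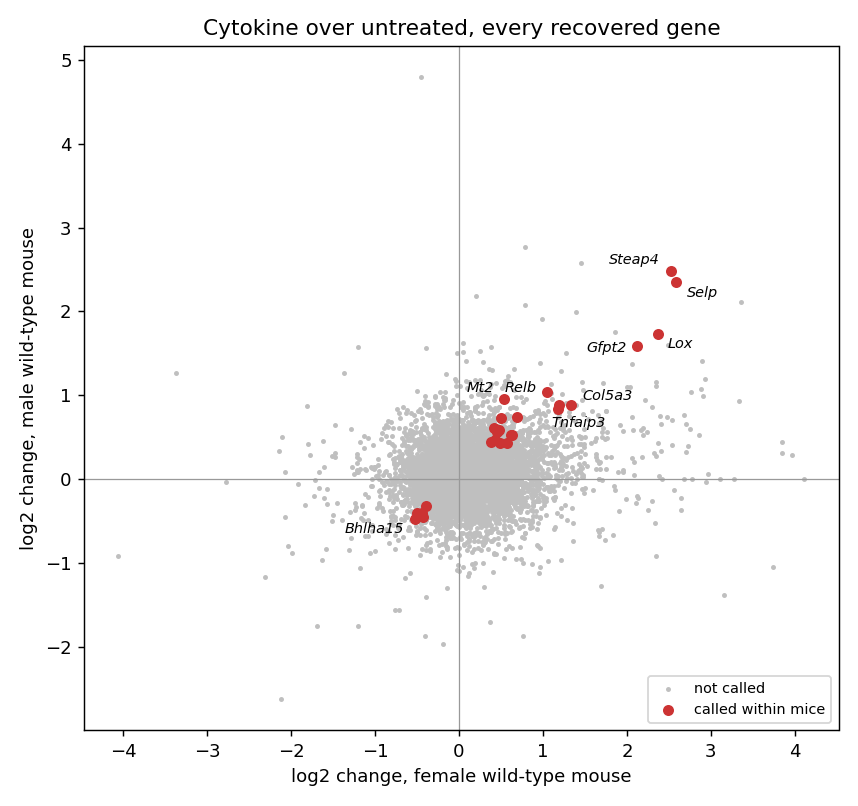
Log2 change of every recovered gene, cytokine over untreated, in the female (x axis) and the male wild-type mouse (y axis); red points are the 25 called genes and grey points all others. The called genes lie near the diagonal, 20 in the upper right and 5 in the lower left, while the grey cloud is wider along the female axis.

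Receptors and adaptors for the 3 cytokines were expressed and had small changes. Of 23 such genes, 16 had positive and 7 negative changes, with a median of 0.09 on the log2 scale against 0.00 over all genes, 12 were higher in both mice and 0 were called. Il1r1, the signalling receptor of IL-1, was abundant, with 11833 untreated and 12756 normalised counts treated in the female mouse and 10621 and 11785 in the male. Its fitted change was 0.13 (SE 0.05, limma adjusted p 0.342). Tnfrsf1b, the second TNF receptor, stood at 0.47 (SE 0.17, limma adjusted p 0.337), with 0.77 in the female mouse and 0.16 in the male.

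Among 16 NF-κB subunits, IκB proteins and IKK components, 1 was called, against 0.123% of all genes called higher, and 10 had positive changes with a median of 0.18. Relb, the subunit of the alternative NF-κB pathway (chr7, 19606217 to 19629438), rose 2.06-fold. It went from 176.8 to 367.1 normalised counts in the female mouse and from 127.2 to 262.4 in the male. Both treated libraries lay above both untreated ones, and the log2 changes of 1.05 and 1.04 were nearly the same in the 2 mice (fit 1.04, SE 0.11, limma adjusted p 0.0274). Nfkbia, the IκB protein that NF-κB induces as its own brake, went from 614.2 to 952.4 in the female mouse and from 554.7 to 866.4 in the male. These groups did not overlap either, but its fitted change of 0.64 (SE 0.10) missed the threshold with a limma adjusted p of 0.0769. Nfkb2, the partner of RelB, had a fitted change of 0.69 (SE 0.11, limma adjusted p 0.0808), 0.91 in the female mouse and 0.47 in the male.

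**Figure D2:**
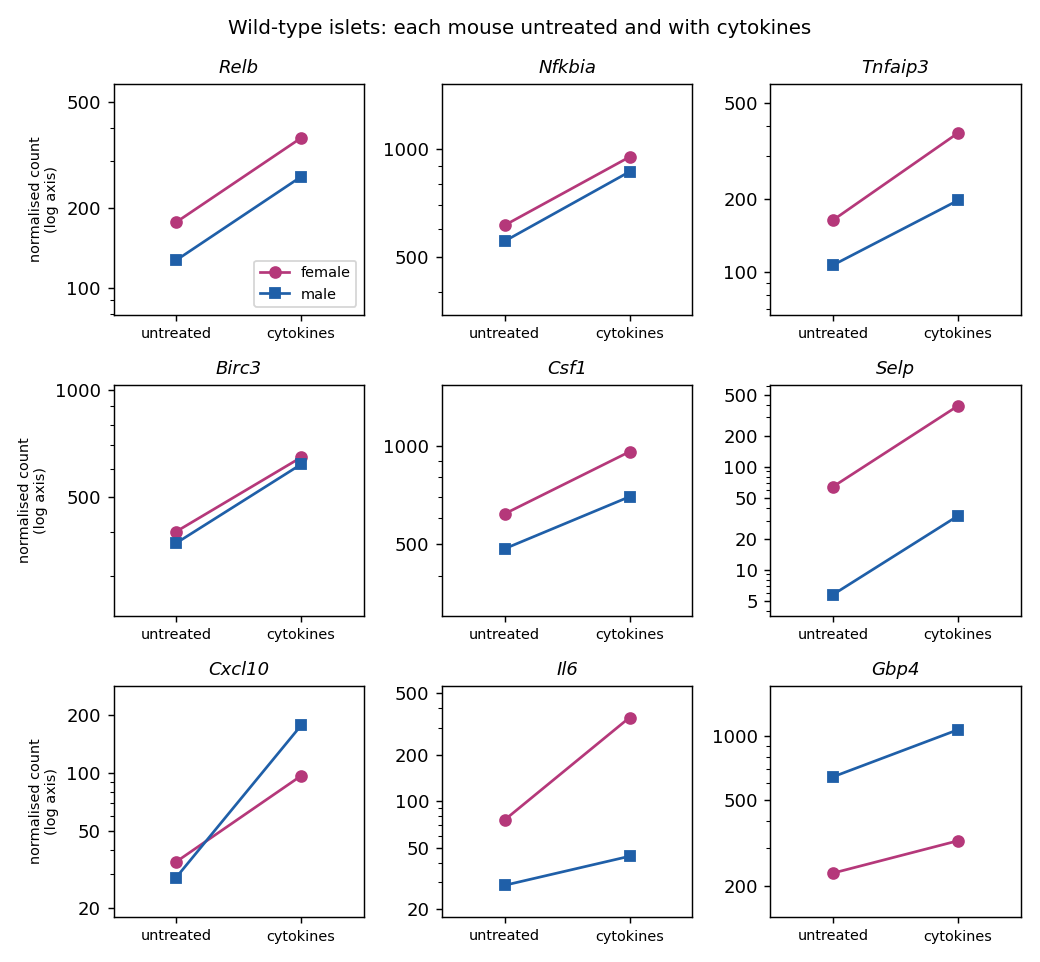
Normalised counts (log axis) of 9 cytokine target genes in the wild-type libraries, with a line joining the untreated and the treated culture of each mouse. Every line slopes upward; the 2 lines are nearly parallel for Relb, Nfkbia and Birc3, while Il6 climbs further in the female mouse and Cxcl10 further in the male.

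The list of NF-κB feedback and survival targets, which also holds adhesion molecules and cytokines, held the most calls of any list. Of 31 measured genes 4 were called higher, against 0.123% of all genes. Positive changes were found in 28, and 24 were higher in both mice, with a median of 0.58 on the log2 scale. The list's median was 0.69 in the female mouse and 0.24 in the male, and 0.24 among members with a mean of at least 100 normalised counts. Listed members outside the deposited tables, among them Nos2 and Tnf, were not analysed here.

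Selp, which encodes the adhesion molecule P-selectin of endothelial cells and platelets (chr1, 164115264 to 164150026), rose 5.54-fold. It went from 63.8 to 389 normalised counts in the female mouse and from 5.73 to 33.3 in the male (48 to 358 and 5 to 40 reads). The male's treated library stayed below the female's untreated one, so the groups overlap and the change shows only within each mouse, with log2 changes of 2.59 and 2.35. Its fitted change was 2.47 (SE 0.18, limma adjusted p 0.00792), the smallest p of all genes. The share of 17 endothelial markers went from 0.0558% to 0.0752% in the female (1.35-fold) and from 0.0611% to 0.0617% in the male (1.01-fold). The part of endothelial content in the Selp change was not tested.

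Tnfaip3, which encodes A20, a ubiquitin-editing brake on NF-κB (chr10, 19000910 to 19015657), rose 2.05-fold. Its normalised counts went from 163.5 to 374.7 in the female mouse and from 106.6 to 197.4 in the male (fit 1.04, SE 0.14, limma adjusted p 0.0435). The treated libraries lay above both untreated ones. Birc3, an inhibitor of cell death that acts in TNF receptor complexes (chr9, 7848699 to 7873186), rose 1.64-fold. It went from 400.1 to 647.3 in the female mouse and from 371.3 to 619.0 in the male, with both treated libraries above both untreated ones (fit 0.71, SE 0.09, limma adjusted p 0.0373). Csf1, the growth factor of macrophages (chr3, 107741048 to 107760469), rose 1.49-fold. Its normalised counts went from 619.5 to 958.9 in the female mouse and from 484.8 to 699.0 in the male, again without overlap (fit 0.58, SE 0.07, limma adjusted p 0.0373). The Tnfaip3 and Csf1 windows printed above held NF-κB matches and that of Birc3 did not.

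Other members of this list were less alike in the 2 mice. Il6, an inflammatory cytokine, went from 75.8 to 349 normalised counts in the female mouse and from 28.7 to 44.2 in the male (fit 1.40, SE 0.35, limma adjusted p 0.222). Icam1, a leukocyte adhesion molecule, had log2 changes of 1.70 and 0.50 (fit 1.10, SE 0.28, limma adjusted p 0.224). Vcam1, another adhesion molecule, had 1.21 and 0.61 (fit 0.91, SE 0.16, limma adjusted p 0.104). For each of the 3 the larger change was in the female, and none passed the threshold.

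Chemokine genes held no call. Of 13 measured genes 10 had positive changes, 7 were higher in both mice and 3 were negative, with a median of 0.36 (0.61 in the female, 0.14 in the male), which was 0.03 among members with a mean of at least 100. Cxcl10, the ligand of CXCR3 on T cells (chr5, 92346638 to 92348889), went from 26 to 89 reads in the female mouse and from 25 to 212 in the male. In normalised counts these were 34.6 and 96.7 in the female mouse and 28.7 and 176.6 in the male, so that both treated libraries lay above both untreated ones. Its fitted change of 2.02 (SE 0.29) carried a limma adjusted p of 0.0584, and the log2 changes were 1.46 in the female mouse and 2.58 in the male. Cxcl1, a neutrophil attractant, went from 15 to 69 reads in the female mouse and from 5 to 26 in the male (fit 1.80, SE 0.36, limma adjusted p 0.177). Cxcl5, of the same subfamily, had a fitted change of 1.31 (SE 0.32, limma adjusted p 0.216).

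Genes induced by IFNγ mostly had small positive changes. Of 36 measured genes 35 had positive changes and 27 were higher in both mice, with a median of 0.31, and 1 was called. The median was 0.20 in the female mouse and 0.35 in the male. Gbp4, a guanylate-binding GTPase of cell-autonomous defence (chr5, 105115767 to 105139586), rose 1.53-fold. It went from 228.6 to 323.6 normalised counts in the female mouse and from 643.0 to 1067 in the male (fit 0.61, SE 0.08, limma adjusted p 0.0435). The male's untreated library lay above the female's treated one, so the groups overlap and the change shows within mice only. The call was lost with voom weights (limma adjusted p 0.0569), with the mean of at least 100 (0.0520), with the wild-type libraries alone (0.101), and without the knockout female (0.0558) or male (0.0783).

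Irf1, a transcription factor that IFNγ induces early, went from 1103 to 1396 normalised counts in the female mouse and from 891.7 to 1085 in the male. The treated male lay just below the untreated female, and the fitted change was 0.31 (SE 0.06, limma adjusted p 0.165). Iigp1, an immunity-related GTPase, had a larger fitted change of 1.69 (SE 0.28, limma adjusted p 0.096) from a low level of 22.6 and 18.3 normalised counts in the untreated female and male. Rnf213, an abundant ubiquitin ligase of the interferon response, stood at 0.31 (SE 0.05, limma adjusted p 0.109). Genes of MHC class I presentation had hardly moved by 2 h: of 17 measured, 11 were positive with a median of 0.02, and 0 were called. Tap1, the peptide transporter, had a fitted change of 0.32 (SE 0.09, limma adjusted p 0.241), and H2-Q7 one of 0.55 (SE 0.21, limma adjusted p 0.353).

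Immediate-early genes, which answer many stimuli within minutes and often decline again within hours, were mostly above their untreated level. Of 30 measured genes 29 had positive changes and 24 were higher in both mice, with a median of 0.27, and 0 were called. The median was 0.44 in the female mouse and 0.11 in the male. Junb, an AP-1 subunit, stood at 0.55 (SE 0.10, limma adjusted p 0.109) and Klf4 at 0.54 (SE 0.12, limma adjusted p 0.189). Nr4a3, an orphan nuclear receptor, stood at 1.13 (SE 0.26, limma adjusted p 0.200). Fos and Egr1, classical members of the group, had fitted changes of 0.42 (SE 0.22) and 0.24 (SE 0.10), with limma adjusted p-values of 0.490 and 0.405.

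The metallothionein genes Mt1 and Mt2 both rose. Metallothioneins are small zinc-binding proteins that are induced by metals, glucocorticoids and inflammatory signals. Mt1 (chr8, 94179082 to 94180327) went from 4937 to 7578 normalised counts in the female mouse and from 5799 to 8385 in the male. The 2 treated libraries lay above both untreated ones, a 1.49-fold rise (fit 0.57, SE 0.06, limma adjusted p 0.0274). Mt2, its neighbour on chr8 (94172664 to 94173568), went from 3366 to 4895 in the female mouse and from 3759 to 7261 in the male, a 1.68-fold rise (fit 0.74, SE 0.10, limma adjusted p 0.0435). Over all 26 metallothionein and redox genes the median was 0.08, 17 were positive, and no call came besides these 2. Sod3, the extracellular superoxide dismutase, stood at 0.84 (SE 0.29, limma adjusted p 0.309), with log2 changes of 1.53 in the female mouse and 0.16 in the male.

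**Figure D3:**
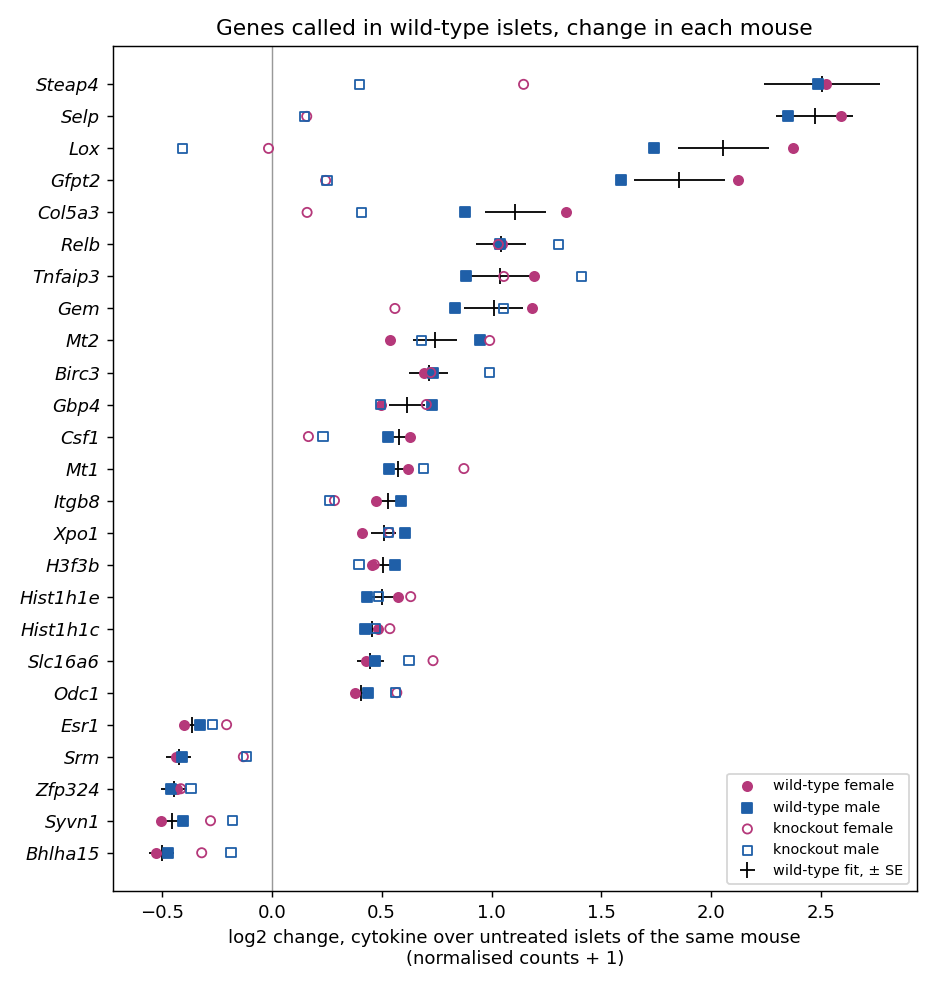
Log2 change of the 25 called genes in each mouse, cytokine over untreated (normalised counts + 1), filled for the wild-type and open for the knockout mice; the black cross is the wild-type fit with its SE. All filled points of a gene lie on the same side of 0, between 2.59 (Selp, female) and -0.53 (Bhlha15, female); the open points of Selp lie at 0.16 and 0.15, and those of Lox at -0.01 and -0.41.

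Among called genes outside these lists, histone genes formed 1 group. H3f3b, which encodes the replication-independent histone H3.3, went from 3361 to 4607 normalised counts in the female mouse and from 3793 to 5589 in the male (fit 0.51, SE 0.05, limma adjusted p 0.0274). The linker histone genes Hist1h1c and Hist1h1e rose by 0.46 (SE 0.05, limma adjusted p 0.0274) and 0.50 (SE 0.07, limma adjusted p 0.0435). For all 3, both treated libraries lay above the untreated library of the same mouse, by log2 changes between 0.43 and 0.57. Of 46 recovered genes with a symbol beginning with Hist, a set described after the calls were seen, 34 were positive with a median of 0.16. Higher in both mice were 23, against 26.9% of all genes. The 2 called, against 0.123% of all genes called higher, were the linker histone genes that prompted the set, so their count is no support. Transcripts of replication-type histones mostly lack a poly(A) tail, and in the same libraries 36 small noncoding RNAs had a median change of 0.32 in the female mouse and -0.11 in the male. Whether the share of such RNA had a part in the histone changes was not tested, and related histone genes share sequence.

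Called genes also included 2 enzymes of polyamine synthesis, 1 higher and 1 lower. Odc1, which makes putrescine from ornithine, rose from 4966 to 6450 normalised counts in the female mouse and from 8160 to 11062 in the male (fit 0.41, SE 0.05, limma adjusted p 0.0274). Srm, the spermidine synthase that uses putrescine, fell from 1578 to 1166 and from 1327 to 998.9 (fit -0.42, SE 0.06, limma adjusted p 0.0435). The groups overlapped for Odc1, which was higher throughout in the male, and did not for Srm. With the wild-type libraries alone their limma adjusted p-values were 0.120 and 0.112. Xpo1, the nuclear export receptor, rose by 0.51 (SE 0.06, limma adjusted p 0.0274), and Slc16a6, a monocarboxylate transporter family member, by 0.45 (SE 0.06, limma adjusted p 0.0435). Gem, a small GTPase that restrains voltage-gated calcium channels, rose 2.01-fold, from 154.2 to 351.9 in the female mouse and from 247.6 to 442.4 in the male (limma adjusted p 0.0435). Itgb8, an integrin subunit that takes part in activating TGFβ, rose by 0.53 (SE 0.07, limma adjusted p 0.0435).

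A further 4 called genes with large changes encode proteins of connective tissue or are often found in fibroblasts and fat. Lox, the collagen cross-linking enzyme lysyl oxidase, went from 35.9 to 190 normalised counts in the female mouse and from 16.0 to 55.8 in the male (fit 2.05, SE 0.21, limma adjusted p 0.0274). Steap4, a metalloreductase induced by inflammatory cytokines, went from 27.9 to 165 in the female mouse and from 5.73 to 36.7 in the male (fit 2.50, SE 0.26, limma adjusted p 0.0274). Gfpt2, an enzyme of the hexosamine pathway, went from 47.9 to 212 and from 13.8 to 43.3 (fit 1.85, SE 0.21, limma adjusted p 0.0274). Treated and untreated groups did not overlap for Lox and Steap4 and overlapped slightly for Gfpt2. Col5a3, a collagen chain, rose 2.16-fold (fit 1.11, SE 0.14, limma adjusted p 0.0386). After treatment the summed share of 24 stromal markers was 2.24-fold in the female mouse and 1.04-fold in the male, and the median log2 change of these markers was 1.44 in the female and 0.29 in the male, with 20 of 24 higher in both. The part of this shift in the 4 changes was not tested.

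The 5 genes that fell had modest changes. Besides Srm they were Bhlha15, Syvn1, Esr1 and Zfp324, a zinc finger gene. Bhlha15 (MIST1), a transcription factor of secretory cells that is strongest in acinar cells, went from 2941 to 2040 normalised counts in the female mouse and from 2751 to 1984 in the male. The treated libraries lay below both untreated ones, with log2 changes of -0.53 and -0.47 (fit -0.50, SE 0.06, limma adjusted p 0.0274). The acinar marker share, which includes Bhlha15 itself, was 0.478-fold in the female mouse and 0.725-fold in the male after treatment. Untreated, that share was 0.481% in the female and 0.0703% in the male, where Bhlha15 had 2941 and 2751 normalised counts. In the knockout mice the share was 1.7-fold in the female and 0.719-fold in the male after treatment. Bhlha15 was 0.802-fold and 0.88-fold there. The part of acinar content in the change of Bhlha15 was not tested.

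Syvn1, the ubiquitin ligase HRD1 that clears misfolded proteins from the endoplasmic reticulum, fell from 3499 to 2470 in the female mouse and from 3096 to 2342 in the male (fit -0.45, SE 0.05, limma adjusted p 0.0373). Esr1, the estrogen receptor α gene, fell from 9865 to 7491 and from 19048 to 15214 (fit -0.36, SE 0.05, limma adjusted p 0.0435). For Syvn1 both treated libraries lay below both untreated ones, while for Esr1 the male was above the female in either state. With the wild-type libraries alone the limma adjusted p was 0.0576 for Syvn1 and 0.230 for Esr1. Tamoxifen-activated Cre proteins carry part of an estrogen receptor, and reads of such a construct and of Esr1 cannot be told apart where a mouse carries one.

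Genes of the unfolded protein response leaned downward. Of 30 genes 26 had negative changes and 20 were lower in both mice, with a median of -0.12, and 0 were called. Lower in both mice over all genes were 25.9%. Herpud1, a partner of HRD1 in the disposal of misfolded proteins, went from 6708 to 4619 normalised counts in the female mouse and from 5490 to 4578 in the male (fit -0.40, SE 0.07, limma adjusted p 0.104). Creld2 and Manf, secretory chaperone-like proteins induced by ER stress, stood at -0.29 (SE 0.05, limma adjusted p 0.115) and -0.22 (SE 0.05, limma adjusted p 0.201). The list's median was -0.16 in the female mouse and -0.04 in the male.

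Changes of glucose-responsive genes were balanced. Of 24 genes 12 were positive and 12 negative, with a median of 0.07 in the female mouse and -0.08 in the male, and 0 were called. Txnip, an inhibitor of thioredoxin that high glucose induces in beta cells, stood lower in the treated culture of both mice. It went from 3549 to 2956 normalised counts in the female mouse and from 3999 to 3277 in the male (fit -0.28, SE 0.06, limma adjusted p 0.200). Mlxipl, which encodes the glucose-sensing factor ChREBP, stood at -0.22 (SE 0.05, limma adjusted p 0.200). Of 22 apoptosis regulators 15 were positive and 0 called, and their median was 0.15. The largest evidence in that list was for Bcl2l11, the death activator BIM, at 0.33 (SE 0.08, limma adjusted p 0.223).

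Genes of the endocrine cells showed no call. For beta-cell genes 21 of 26 recovered members were negative, with a median of -0.06, and 14 were lower in both mice. In the authors' deposited table the log2 changes were -0.24 (SE 0.09, FDR 1) for Ins2 and -0.18 (SE 0.10, FDR 1) for Ins1. Ffar1, a fatty acid receptor of beta cells, went from 5212 to 4654 normalised counts in the female mouse and from 4462 to 3979 in the male (fit -0.16, SE 0.05, limma adjusted p 0.261). Of 14 alpha-cell genes 9 were positive (median 0.03), and in the authors' deposited table Gcg had a change of 0.11 (SE 0.57, FDR 1). In delta, PP and epsilon cell genes 4 were positive and 5 negative (median -0.05). Sst stood at -0.15 (SE 0.06, limma adjusted p 0.401), Ppy at -0.18 (SE 0.09, limma adjusted p 0.440) and Ghrl at -0.68 (SE 0.24, limma adjusted p 0.323).

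**Figure D4:**
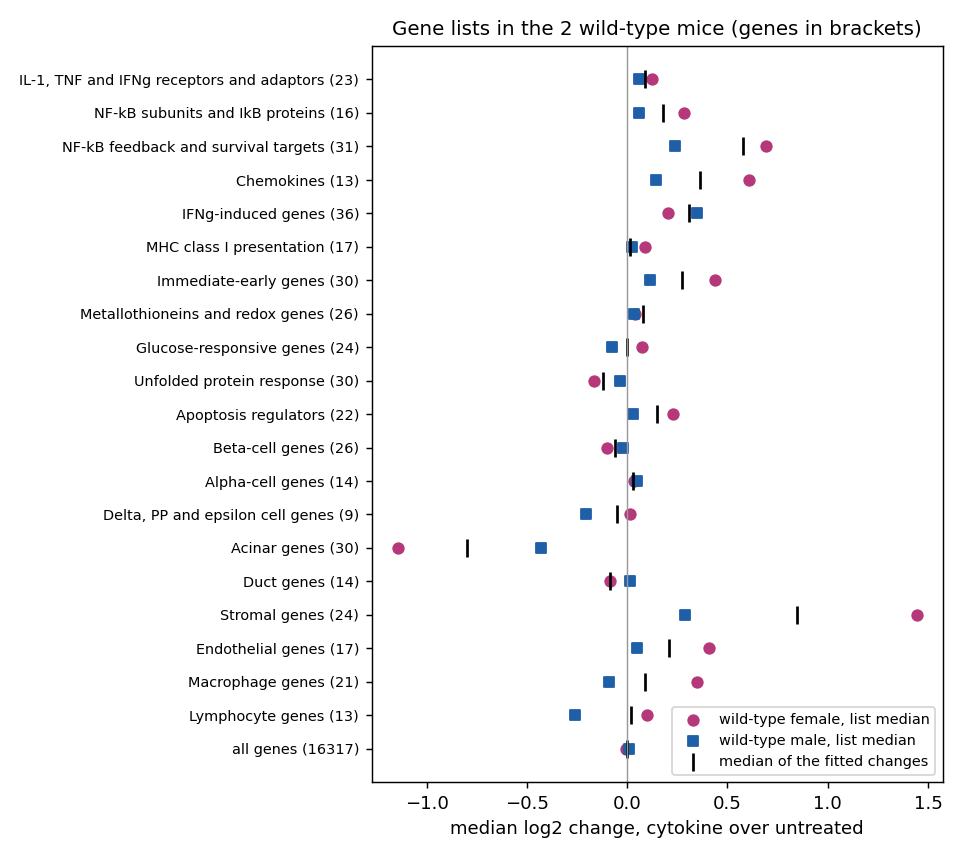
Median log2 change, cytokine over untreated, of 20 gene lists and of all genes in the female and the male wild-type mouse, with the median of the fitted changes as a black bar. Feedback and survival targets of NF-κB, IFNγ-induced and immediate-early genes lie above 0 in both mice. Several other lists do so too, among them apoptosis regulators, stromal and endothelial genes. Acinar and stromal genes lie furthest from 0, mainly in the female.

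Acinar and stromal genes had the medians furthest from 0 among the 20 lists. In whole islets a change in the number of cells of a type and a change in RNA per cell cannot be told apart. Negative changes were found in 29 of 30 acinar genes, whose median was -0.80, -1.15 in the female mouse and -0.43 in the male, and 25 were lower in both mice. Reg1, a secreted acinar protein, went from 2451 to 989.4 normalised counts in the female mouse and from 354.2 to 196.6 in the male (fit -1.08, SE 0.22, limma adjusted p 0.178). Bhlha15 was the only call among the listed acinar genes. The 24 stromal genes all had positive changes and a median of 0.85, but this was 1.44 in the female mouse and 0.29 in the male, and 0 were called. Pdgfra, a receptor of fibroblasts, went from 38.6 to 220.5 in the female mouse and from 16.0 to 50.8 in the male (fit 2.04, SE 0.34, limma adjusted p 0.086).

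Of 17 endothelial genes 15 were positive (median 0.21), with medians of 0.41 in the female mouse and 0.05 in the male. Pecam1, the endothelial marker CD31, stood at 0.27 (SE 0.09, limma adjusted p 0.301). Macrophage genes had a median of 0.09, but 0.35 in the female mouse and -0.09 in the male, and 6 of 21 were higher in both mice. Lymphocyte genes were scarce: their summed share lay between 0.00207% and 0.00295% in the 4 wild-type libraries, 2 of 13 markers had 0 reads in the untreated male, and 0 were called. Of 14 duct genes 6 were positive (median -0.09). The part of these shifts in the cytokine lists was not tested.

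**Figure D5:**
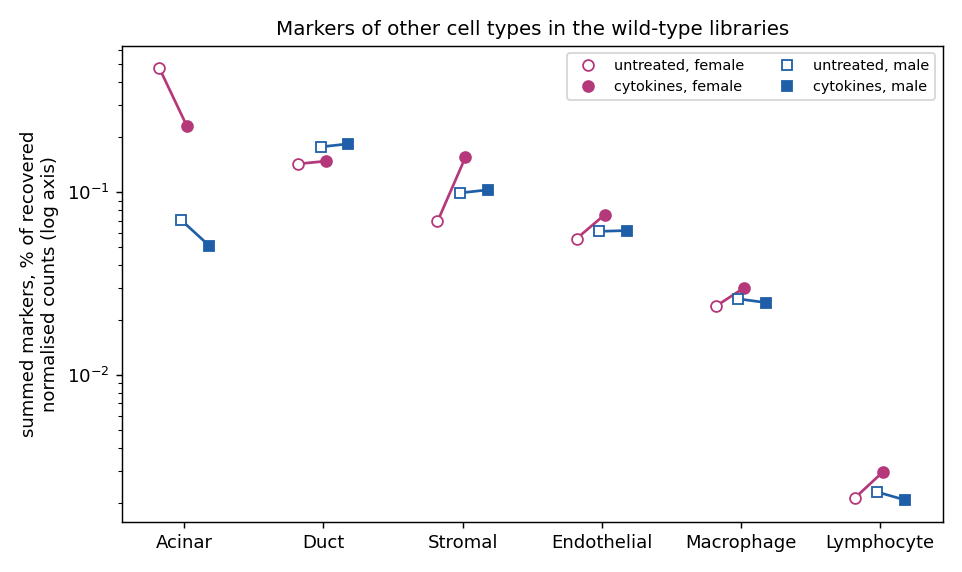
Summed markers of 6 cell types as a percent of recovered normalised counts (log axis) in the 4 wild-type libraries, open symbols untreated and filled symbols with cytokines, joined within each mouse. The acinar share is lower after treatment in both mice, and the stromal and endothelial shares are higher in the treated female and nearly level in the male.

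The knockout islets received the same treatment, which allows a test of whether the wild-type response differed from theirs. No gene passed that test: limma called 0 of 16317 genes (0%) for the difference of the 2 responses, with a smallest adjusted p of 0.193 and 661 genes at an unadjusted p below 0.05. The same difference taken from the authors' deposited tables also gave 0, with 36 at an unadjusted p below 0.05. Leaving out the wild-type female or male gave 19 or 337 calls for the difference, and leaving out the knockout female or male gave 8 or 9. Within knockout mice limma called 20 genes (0.123%), and 11 of the 25 wild-type calls were among them in the same direction. Of the 25, 24 had the same direction in both knockout mice, a count for which the share over all genes was not taken. These counts come from 1 fit in which both genotypes share the variance of each gene. A gene with like changes in the 2 knockout mice was therefore called more readily, and the counts are not independent support.

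The 5 NF-κB genes called in wild-type islets also had positive changes in both knockout mice, of unequal size. Relb stood at 1.03 and 1.30 on the log2 scale in the female mouse and male knockout mouse, Tnfaip3 at 1.06 and 1.41, and Birc3 at 0.72 and 0.99. Csf1 stood at 0.17 and 0.23 in the knockout mice against 0.63 and 0.53 in the wild type (knockout limma adjusted p 0.486). Selp was the gene with the smallest p of the difference. Its log2 changes were 2.59 and 2.35 in the wild-type mice and 0.16 and 0.15 in the knockout mice, a difference of 2.32 (SE 0.25, p 1.2e-05, limma adjusted p 0.193). Lox came next, with 2.37 and 1.74 in the wild type against -0.01 and -0.41 in the knockout, a difference of 2.26 (SE 0.29, limma adjusted p 0.374). The untreated levels also differed. Selp had 136.2 and 86.5 normalised counts in the untreated knockout female and male, against 63.8 and 5.73 in the wild type. Lox had 221.7 and 111.6 there, above the 190.1 and 55.8 of the treated wild-type female and male. The part of these untreated levels in the 2 differences was not tested. Rn7s2, a gene of the signal recognition particle RNA, had a difference of 0.66 (SE 0.11, limma adjusted p 0.998). In the knockout the summed share of endothelial markers after treatment was 0.952-fold in the female mouse and 0.888-fold in the male, and its part in the Selp difference was not tested.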

How the data were processed

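HISAT2, HTSeq and DESeq2 are listed in the submitters' processing notes, with GRCm38 as the build and no version. Strand, and the treatment of multiply matching reads, are not given in the sources used here. The authors deposited comparison tables, in which the genotype column named Mut was taken for wild type, the remaining genotype. The deposited signal columns are group means of normalised counts (reads over each library's size factor). The deposited log2 fold changes and the deposited score, a Wald statistic, come from the authors' model, and each SE printed beside an authors' value is their ratio. The deposited p-values and FDR are those of the authors. The smallest mean over all libraries was 23.2 normalised counts, so low genes had been removed.

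Each group mean is a sum of 2 whole numbers times fixed steps. Searching these, and the mean over all libraries to a relative tolerance of 2e-14, returned whole reads per library for 16317 genes. For 16023 each group had 1 solution, and 294 were settled by the overall mean. The 16 not recovered, among them Ins1, Ins2 and Gcg, hold 19.3% of normalised counts. The libraries of 1 mouse were paired by the reads of 4 Y-linked genes, the design text stating that islets of each mouse were divided. Deviations from group means of genes with a mean of at least 100 correlated at 0.83 and 0.81 within the wild-type and knockout pairs, against 0.58 to 0.62 between mice of the same sex in the 2 genotypes.

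limma 3.58.1 in R 4.3.3 was fitted to log2(normalised count + 1) over all 8 libraries, with the mouse as a block, a cytokine term per genotype and a trended variance (2 residual degrees of freedom). Folds are on that scale and understate changes of low genes. Tests were two-sided and adjusted by Benjamini-Hochberg over all genes, with a threshold of 0.05. A count model was not the main test, because the tables hold means. With 2 mice of different sex, sex and mouse cannot be told apart.

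The members, the 20 gene lists, the rules and the promoters searched were chosen with earlier results of these data known. Named genes are the authors' calls, up to 20 calls a direction within mice, for each list the 3 genes of smallest p, the 4 smallest p of the difference between genotypes, and a fixed set of cytokine and islet genes. Positions come from GENCODE M21 on GRCm38, where 22 identifiers had no match, and promoters from the RefSeq table. Results of 1 further motif searched are not reported here. Alternatives covered pairing, pseudocount, scaling, low genes, voom weights, the wild-type libraries alone and each mouse left out.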

Additional observations from a re-analysis of the deposited data

Results flagged for a closer look

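Among the recovered ones of 93 named genes and among 20 lists, 7 genes and 2 lists split by genotype. In these both wild-type mice moved one way with cytokines and both knockout mice the other way. The share of all genes that split like this was not taken. The named genes also include the 4 with the smallest p of the difference, so the count does not show a difference between genotypes. Lox stood at 2.05 on the log2 scale in the wild type and -0.21 in the knockout, a difference of 2.26 (SE 0.29, limma adjusted p 0.374). Its untreated normalised counts were 221.7 and 111.6 in the knockout female and male, against 35.89 and 16.05 in the wild type. Tspan1 differed by -2.55 (SE 0.39, limma adjusted p 0.878), from 69.1 to 20.6 normalised counts in the wild-type female and from 8.02 to 1.67 in the male. Myo1g, a myosin of lymphocytes, differed by -2.01 (SE 0.54, limma adjusted p 0.998). The summed lymphocyte markers were at 0.0209% to 0.235% of recovered normalised counts in the knockout libraries, 1.59-fold in the female and 0.568-fold in the male after treatment, and at 0.00207% to 0.00295% in the wild type, and their part was not tested. Ghrl, the ghrelin gene, differed by -1.08 (SE 0.34, limma adjusted p 0.998). Tnfrsf10b, a death receptor, differed by 0.66 (SE 0.23), Kdr, a VEGF receptor, by 0.35 (SE 0.12), and Psme1, a proteasome activator subunit, by -0.30 (SE 0.10), each with a limma adjusted p of 0.998. The median of the unfolded protein response genes differed by -0.11 (wild type -0.10, knockout 0.01), and that of endothelial genes by 0.35 (wild type 0.23, knockout -0.13). Each of these list values is the mean of the medians of 2 mice, and the 2 differences were not tested.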

How the results depend on the processing

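The 2 calls of the authors compare with 0 calls by limma without a replicate block and 25 with it. Pairing decided the count of 25: without the replicate block it was 0. Leaving out 1 mouse gave 29 to 1230 calls for the wild-type response and 8 to 337 for the difference between genotypes, whose count was otherwise 0. Without a wild-type mouse the spread comes from the 2 knockout mice alone, with 1 residual degree of freedom. The remaining wild-type mouse is then assumed to vary like them. Calls kept in these settings carry no support, because the genes had been selected with both wild-type mice and the same knockout spread. Of the 25 genes, 14 and 13 missed the threshold without the knockout female and male. The wild-type libraries alone gave 31 calls, 13 of them shared. Pseudocounts of 0.5 and 5 gave 25 calls each, scaling to total reads 22, a mean of at least 100 normalised counts 18, and voom weights 28. By construction, fold changes equal the paired ones in the unpaired fit, with the wild-type libraries alone and without either knockout mouse. The same holds with the mean of at least 100. A kept direction carries no support in these settings. In the remaining settings the called genes kept their direction too. That carries no support either, because they had been called for like changes in both wild-type mice. The median of chemokines fell to 0.03, and that of NF-κB feedback targets to 0.24, with the mean of at least 100.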
